A study of Rattus norvegicus with 2 samples.

Results

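Fibromodulin (Fmod), osteoglycin (Ogn), osteomodulin (Omd) and the proline- and arginine-rich end leucine-rich repeat protein (Prelp) had a higher signal in tafazzin-deficient C6 TAZ cells than in wild-type C6 cells, by 38.9-fold, 5.62-fold, 3.84-fold and 2.39-fold on microarrays. The size of the Fmod value depends on a dim signal in C6 cells (a log2 signal under 6). They are 4 of the 10 small leucine-rich proteoglycan genes described here, which were chosen by symbol as Fmod, Lum, Prelp, Kera, Omd, Dcn, Bgn, Aspn, Ogn and Epyc. The other 6 members were within 2-fold. All 10 genes are on the array, where 13 of its 23188 transcript clusters (sets of probes that measure 1 gene or transcript) carry one of their symbols.

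The study measured C6 TAZ cells, in which tafazzin, the acyltransferase that remodels cardiolipin, was knocked out with CRISPR-Cas9, and wild-type C6 cells, the rat glioma line they were made from. Both were grown in DMEM with 3% FBS and antibiotics. RNA of 3 independent cultures per genotype was pooled and put on 1 Affymetrix Clariom S rat array, so that the spread between cultures was not measured. With 1 array per genotype a difference has no replicate check, and no test, p-value or SD between samples is given. The sources used here do not give whether the C6 TAZ line comes from 1 clone.

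Tafazzin itself (Taz) had log2 signals of 9.84 in the C6 TAZ array and 10.34 in the C6 array. The sources used here do not give where its probes lie relative to the edited part of the gene, so this signal does not check the genotype. Log2 signals ran between 2.60 and 18.97 over all clusters, with a median of 6.40 in the C6 TAZ array and 6.39 in the C6 array. The deposited data name the arrays in opposite ways. A workbook gives the signals under the names C6 TAZ and C6. The other table, which names its columns by sample, has these values in 1.16% of the clusters as the columns are named, and in 100% once they are exchanged. The names of the workbook were used, since the signals that the paper prints for both cell lines stand there under the same names. With the other names every difference below changes its sign.

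Small leucine-rich proteoglycans are secreted proteins with a curved stack of leucine-rich repeats between cysteine clusters. Most of them bind collagen fibrils and influence how thick and how regularly spaced these become, and several bind growth factors such as TGF-β. Many carry glycosaminoglycan chains, which are chondroitin or dermatan sulfate in class I and keratan sulfate in several members of class II. They are best known from tendon, cartilage, bone, skin and cornea.

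The promoter sequences show the start regions of the 3 members past 2-fold for which the RefSeq table used here (build GRCr8) holds one, and of lumican as a member that was dim in both arrays. Each line gives the 250 bases before the gene's start. Capitals mark SMAD boxes (CAGAC or its complement GTCTG, letters that SMAD proteins of the TGF-β pathway bind) and the TATA box letters TATAAA on either strand. In Ogn matches to TATAAA on both strands overlap.
Fmod, chr13:48045317-48045566, + strand: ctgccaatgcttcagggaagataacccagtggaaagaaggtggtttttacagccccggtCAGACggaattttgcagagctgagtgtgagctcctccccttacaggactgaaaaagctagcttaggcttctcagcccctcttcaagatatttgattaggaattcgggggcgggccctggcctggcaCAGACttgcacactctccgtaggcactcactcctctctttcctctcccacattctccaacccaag
Ogn, chr17:15258996-15259245, - strand: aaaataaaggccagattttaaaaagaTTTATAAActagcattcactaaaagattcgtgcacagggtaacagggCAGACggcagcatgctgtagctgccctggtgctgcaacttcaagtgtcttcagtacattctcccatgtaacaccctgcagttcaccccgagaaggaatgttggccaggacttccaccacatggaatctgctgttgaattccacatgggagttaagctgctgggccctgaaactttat
Omd, chr17:15274871-15275120, - strand: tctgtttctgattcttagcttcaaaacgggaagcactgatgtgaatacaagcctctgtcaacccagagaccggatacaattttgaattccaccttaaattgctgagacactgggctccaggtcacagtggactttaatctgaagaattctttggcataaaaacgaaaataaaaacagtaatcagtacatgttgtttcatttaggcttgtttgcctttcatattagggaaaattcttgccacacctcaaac
Lum, chr7:34245456-34245705, + strand: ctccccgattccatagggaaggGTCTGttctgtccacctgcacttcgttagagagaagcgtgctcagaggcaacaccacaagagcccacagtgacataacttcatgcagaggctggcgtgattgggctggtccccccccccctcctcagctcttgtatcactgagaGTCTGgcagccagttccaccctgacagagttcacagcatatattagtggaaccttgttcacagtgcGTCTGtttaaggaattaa

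SMAD box letters occurred 2 times before Fmod, 1 time before Ogn, not before Omd and 3 times before the dim Lum. Of the 7 members with a sequence in the table (Fmod, Ogn, Omd, Lum, Kera, Epyc and Aspn), 3 held these letters, beside 42.9% of the 33469 promoters of the table over the same 250 bases. TATAAA stood before Ogn at base −222 counted back from the start, overlapped by its complement TTTATA from base −224. Neither form stood before another of the 7, and 12.9% of all promoters held these letters on either strand. The AP-1 letters TGANTCA were in none of the 7 windows and in 6.34% of all promoters. E-box letters (CANNTG) were found in 5 of the 7 and in 65.5% of all promoters, and CCAAT in 3 of the 7 and in 34.0% of all promoters. The GC box letters GGGCGG were before Fmod alone among the 7, and in 30.5% of all promoters. Both strands were searched for each motif, and Omd held none of them. A match is a description of the letters, not of a binding site. Guanine and cytosine made up 52.8% of the Fmod window, 46.0% of that of Ogn and 38.8% of that of Omd, beside a median of 51.2% over all promoters.

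Of the 10 members, 4 were at least 2-fold higher in C6 TAZ cells, beside 2.34% of all 23188 clusters, and none was at least 2-fold lower, beside 2.1%. Counting both directions, 4 of 10 members and 4.44% of all clusters were past 2-fold. A fold of 2 is a log2 difference of 1. The log2 difference, C6 TAZ minus C6, had a median of 0.51 over the members and of 0.00 over all clusters. Including the members within 2-fold, 8 differences were positive and 2 negative, and 49.3% of all clusters had a positive difference. Between 1.5-fold, the threshold in the methods of the study, and 2-fold there was no member, so at 1.5-fold again 4 members were higher, beside 9.87% of all clusters, and none was lower, beside 9.05%. The members were picked with earlier results of these arrays known, and these counts are a description of them.

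**Figure D1:**
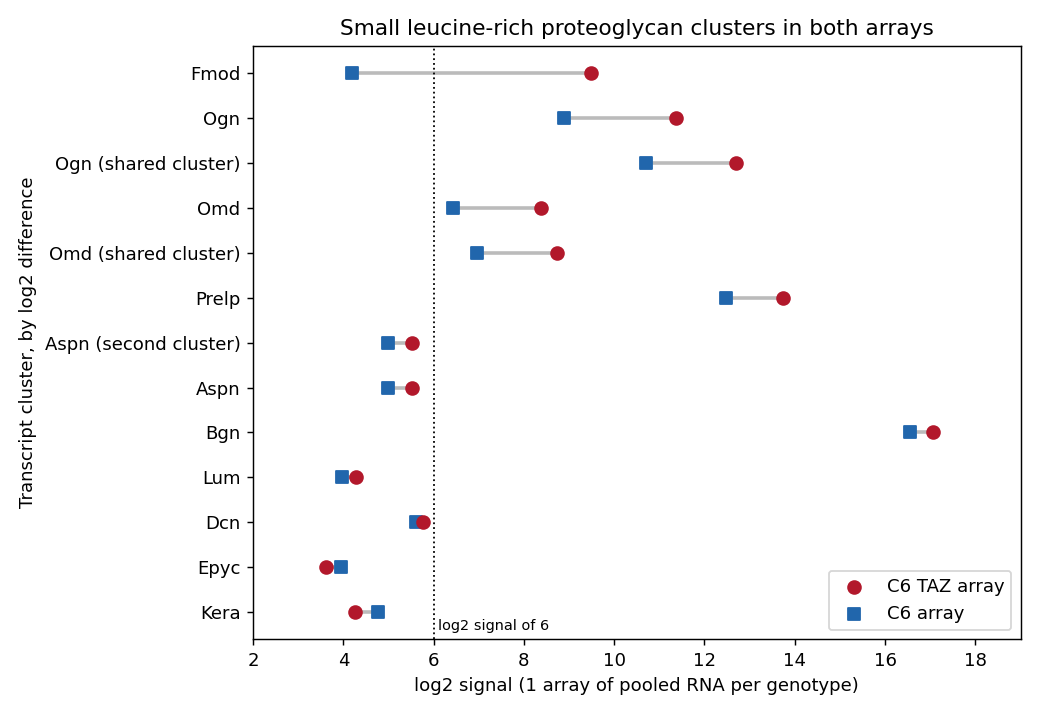
Log2 signals of the 13 transcript clusters of the 10 genes in the C6 TAZ array (red circles) and the C6 array (blue squares), ordered by the log2 difference, with 1 array of pooled RNA per genotype and a dotted line at a log2 signal of 6. Fmod crosses the line, at 9.48 in the C6 TAZ array and 4.20 in the C6 array, while Aspn, Lum, Dcn, Epyc and Kera stay below it in both.

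Class II, the class of keratan sulfate proteoglycans and their relatives, held 3 of the 4 members past 2-fold, out of 5 in the class. Fmod, which helps to set the thickness and cross-linking of collagen fibrils, had log2 signals of 9.48 in the C6 TAZ array and 4.20 in the C6 array. It was thus dim in the C6 array and above this level in the C6 TAZ array. Of all clusters, 44.7% were dim in both arrays. The log2 difference of Fmod was 5.28. On the array, 77 clusters were under 6 in C6, at or above 6 in C6 TAZ and at least 2-fold higher, Fmod among them. Of these, 3 were at or above 9 in C6 TAZ. That level lies just under the Fmod signal there, so Fmod was bound to be among them. No background measure was used here, so how far the Fmod difference rests on background in the C6 signal was not measured. It is given as a ratio of signals with no rank.

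Omd, an acidic proteoglycan of bone also called osteoadherin, had log2 signals of 8.37 in the C6 TAZ array and 6.43 in the C6 array, a log2 difference of 1.94. A further cluster that carries the Omd symbol together with LOC102550506 had 8.74 in the C6 TAZ array and 6.97 in the C6 array, a difference of 1.77. Both clusters ran the same way, and their differences were 0.17 apart. Among all 641 genes with 2 clusters of their own and unequal signals, the differences of the 2 clusters lay a median of 0.27 apart, and 27 pairs were over 1 apart.

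Prelp, which binds collagen and heparan sulfate, was bright in both arrays, with a log2 signal of 13.73 in the C6 TAZ array and 12.47 in the C6 array. Its log2 difference of 1.26 was the smallest of the 4 past 2-fold. Lumican (Lum), which spaces collagen fibrils in the cornea, was dim in both arrays at 4.27 in C6 TAZ and 3.98 in C6, a difference of 0.29. Keratocan (Kera), another corneal proteoglycan, was dim too, with 4.26 in C6 TAZ and 4.76 in C6, a difference of −0.50.

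Of the 2 class III genes, Ogn, whose protein is also called mimecan and occurs in bone and cornea, was past 2-fold. Its own cluster had log2 signals of 11.37 in the C6 TAZ array and 8.88 in the C6 array. The difference of 2.49 ranked 20 from the top of all clusters. The brighter cluster that Ogn shares with LOC100910855 had 12.70 in C6 TAZ and 10.70 in C6. Its difference of 2.00, which is 4-fold, ranked 42 from the top. The 2 clusters were 0.49 apart in their difference, and both were past 2-fold. Epiphycan (Epyc), a dermatan sulfate proteoglycan of growth plate cartilage, stayed dim at 3.61 in C6 TAZ and 3.95 in C6, a difference of −0.34.

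None of the 3 class I members was past 2-fold. Biglycan (Bgn), which carries chondroitin or dermatan sulfate chains, was bright in both arrays, with a log2 signal of 17.06 in C6 TAZ and 16.56 in C6. Its difference of 0.50 equals 1.41-fold. Decorin (Dcn), which binds collagen and TGF-β, was dim in both arrays at 5.76 in C6 TAZ and 5.60 in C6, a difference of 0.16. Asporin (Aspn), a relative that lacks the glycosaminoglycan chain of decorin, had 5.51 in C6 TAZ and 4.99 in C6, a difference of 0.52. Its 2 clusters held the same values in both arrays and were counted once.

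In all, 5 members (Lum, Kera, Epyc, Dcn and Aspn) stayed dim in both arrays, with differences between −0.50 and 0.52, and 4 (Prelp, Omd, Ogn and Bgn) were at or above a log2 signal of 6 in both. Fmod alone was dim in the C6 array and not in the C6 TAZ array. No detection call was used here, so a dim signal does not show that a transcript is absent, and signals of different clusters depend on their probes and are not ranked against each other.

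The spread of the differences over all clusters shows how large a difference was common at a given brightness. Among the 3026 clusters with a mean log2 signal between 6 and 8, where Fmod and Omd lie, the SD of the differences was 0.565 and 4.06% were at least 2-fold higher. Among the 3092 clusters between 10 and 12, where Ogn lies, the SD was 0.52 and 2.94% were at least 2-fold higher. In the band of Prelp, between 12 and 14, the SD was 0.47 over 2106 clusters and 1.85% were higher. The differences of these 4 members were over 2 SD of their band. They were grouped here as the members past 2-fold, a log2 difference of at least 1. In the band of Prelp 2 SD is less than that, so its outcome was fixed from the start. For Fmod, Omd and Ogn 2 SD is little more than that, which made the outcome likely. The band of Fmod comes from the mean of a dim signal of 4.20 in C6 and one of 9.48 in C6 TAZ. Bgn lies among the 1080 clusters at or above 14, which had an SD of 0.392, so that its difference was between 1 and 2 SD of that band. The dim members lie in bands with an SD of 0.408 (under 4.5, Lum and Epyc) and 0.478 (between 4.5 and 6, Kera, Dcn and Aspn). These SDs are over clusters within 1 pair of arrays and are no replicate error.

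**Figure D2:**
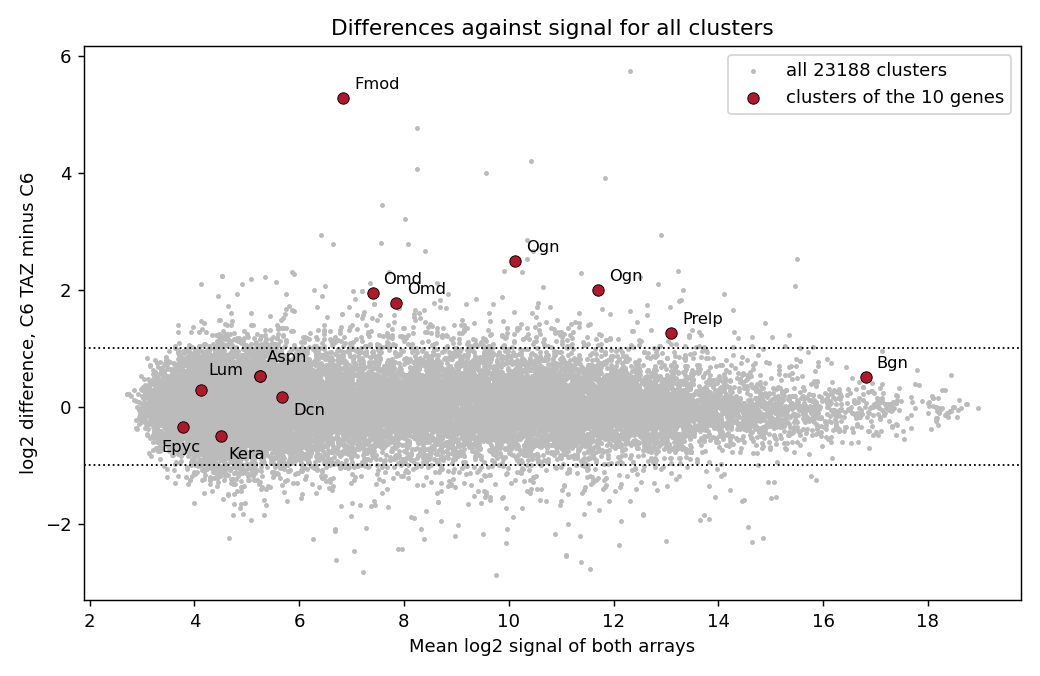
Log2 difference of C6 TAZ minus C6 (vertical axis) against the mean log2 signal of both arrays (horizontal axis) for all 23188 clusters (grey) and the clusters of the 10 genes (red), with dotted lines at 2-fold. Fmod, Ogn, Omd and Prelp lie above the upper line, and no member lies below the lower one.

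Several of these genes are neighbours in the genome. The 4 genes on chromosome 7 (Dcn, Lum, Kera and Epyc) follow each other with no other protein-coding gene between them in the RefSeq order of GRCr8, which was used for gene order and not for array positions. All 4 were dim in both arrays and within 2-fold. On chromosome 17, Ogn, Omd and Aspn also stand side by side, within the gene Cenpp, which encodes a centromere protein. There the differences were 2.49 for Ogn, 1.94 for Omd and 0.52 for Aspn, while Cenpp had log2 signals of 7.57 in C6 TAZ and 8.12 in C6, a difference of −0.55. Ecm2, a relative of these genes on the far side of Aspn, was dim at 3.95 in C6 TAZ and 4.02 in C6. RefSeq of GRCr8 lists each of Ogn, Omd and Aspn 1 time, whereas the array, annotated on the older build rn6, carries 2 clusters for each. Signals of the Ogn and Omd clusters with a further symbol are therefore given apart from those with 1 symbol.

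On chromosome 13, Prelp and Fmod stand side by side, and both were past 2-fold, with differences of 1.26 and 5.28. Opticin (Optc), a class III proteoglycan gene of the eye next to Prelp, was dim at 5.07 in C6 TAZ and 4.60 in C6. On the other side of Fmod, the antiproliferative gene Btg2 had 6.73 in C6 TAZ and a dim 5.56 in C6, a difference of 1.17. The chitinase-like gene Chi3l1 was dim in both arrays, at 5.82 in C6 TAZ and 4.43 in C6, a difference of 1.39. Chit1, between Btg2 and Chi3l1, had a difference of −0.18. Atp2b4, a calcium pump gene beyond Optc, had a difference of 0.04. Bgn stands alone on chromosome X, between Haus7 (−0.45) and Atp2b3 (0.57). Of 24 neighbours that stand up to 3 places from a member, 22 were found on the array. Among these 22, 2 were at least 2-fold higher (Btg2 and Chi3l1), beside 2.34% of all clusters. None was lower by 2-fold, beside 2.1% of all clusters, and the median difference of the 22 was −0.065.

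**Figure D3:**
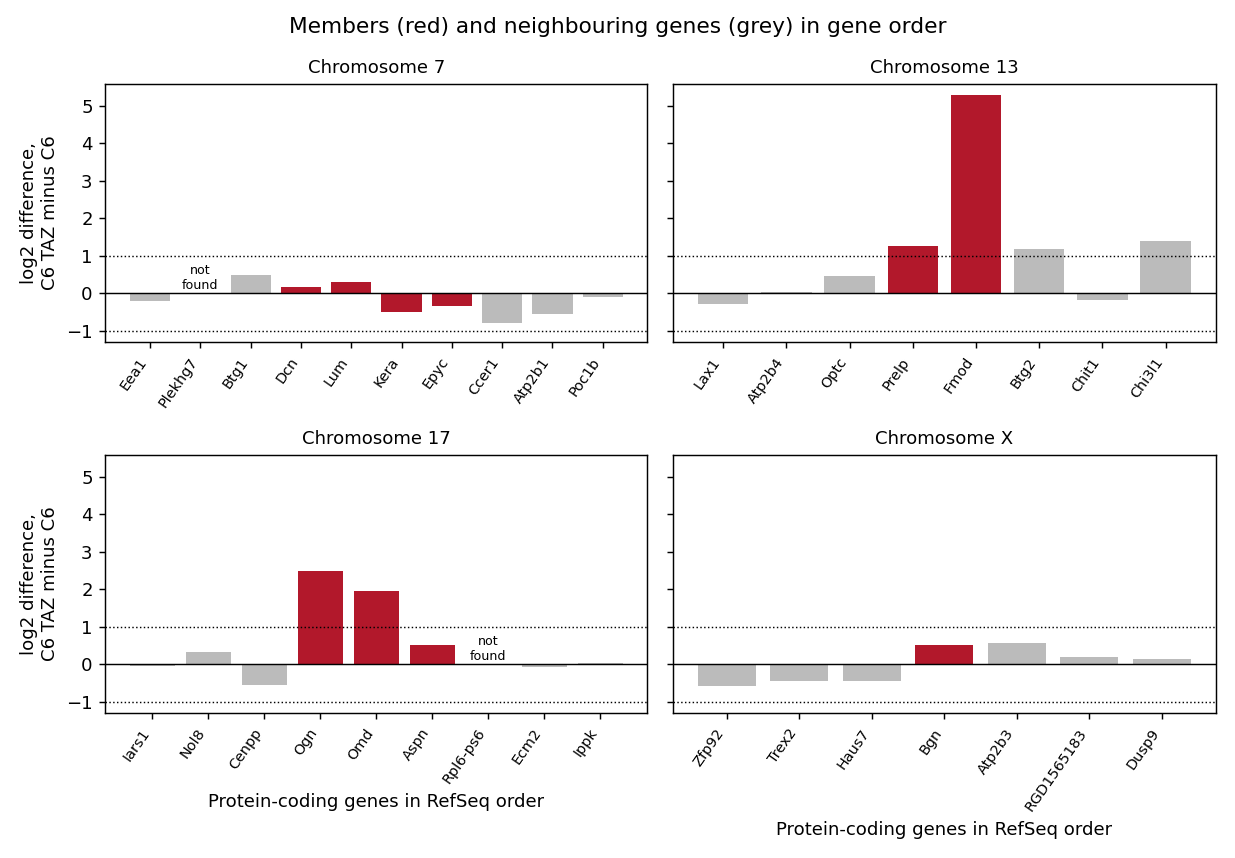
Log2 difference of C6 TAZ minus C6 for the members (red) and up to 3 neighbouring protein-coding genes on either side (grey), in RefSeq gene order on chromosomes 7, 13, 17 and X, with dotted lines at 2-fold. The 4 members on chromosome 7 stay within 2-fold, while Fmod and Prelp on chromosome 13 and Ogn and Omd on chromosome 17 are past it.

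Among 7 related genes outside the 10, only the chondroadherin-like gene Chadl, whose product resembles a cartilage proteoglycan, was past 2-fold. It had log2 signals of 9.81 in C6 TAZ and 7.88 in C6, a difference of 1.93. The other 6 (Optc, Chad, Nyx, Tsku, Podnl1 and Ecm2) were within 2-fold, and the median of the 7 was −0.12. Beside Chadl, only Tsku, which encodes the secreted protein tsukushi, reached a log2 signal of 6, with 14.49 in C6 TAZ and 14.61 in C6.

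The enzymes that build the sugar chains of these proteoglycans were read beside them. Of 22 genes for chondroitin and dermatan sulfate chains none was past 2-fold in either direction, with differences between −0.54 and 0.83 and a median of −0.01. Of 12 genes for keratan sulfate chains and sulfate supply, none was higher and 1 was at least 2-fold lower (median 0.19). This was Chst2, which adds sulfate to N-acetylglucosamine, at 9.67 in C6 TAZ and 11.14 in C6, a difference of −1.47. The tyrosine sulfotransferases, which modify the tyrosine-rich ends of proteins such as fibromodulin, had differences of −0.04 (Tpst1) and 0.59 (Tpst2).

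Among the collagens that these proteoglycans bind, 3 of 13 chains were higher and 1 was at least 2-fold lower (median difference 0.16). Col12a1, a chain of a collagen on the fibril surface, had 10.86 in C6 TAZ and 9.52 in C6, a difference of 1.34. Col3a1, a fibril-forming chain, had 9.24 in C6 TAZ and 8.01 in C6, a difference of 1.23. Col14a1, another fibril-surface chain, had a difference of 1.19 with a log2 signal of 6.10 in C6 TAZ and 4.91 in C6. Col6a2, of the beaded filaments of collagen VI, went the other way at 10.59 in C6 TAZ and 11.71 in C6, a difference of −1.12. The collagen I chain Col1a1 was close to a log2 signal of 6, with 6.23 in C6 TAZ and 6.08 in C6. The other collagen I chain, Col1a2, had an average difference of −0.21 over 2 clusters. The differences of these 2 clusters were over 1 apart, so its place within 2-fold is uncertain. None of 11 genes for the cross-linking and hydroxylation of collagen was past 2-fold, and their differences lay between −0.65 and 0.42 (median 0.12).

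Of 16 growth factors and receptors known to bind members of the family, 2 were at least 2-fold higher, none was as much lower, and the median difference was 0.485. The growth factor gene Tgfb2 had 11.61 in C6 TAZ and 9.08 in C6, a difference of 2.53. Wisp1, which encodes a matricellular protein, had 11.26 in C6 TAZ and 10.23 in C6, a difference of 1.03. Of 13 genes for proteases that cut these proteoglycans or their propeptides, which include the proteinase enhancer Pcolce, the aggrecanase gene Adamts4 was higher by 1.26 on the log2 scale and none was lower by 2-fold (median 0.30). Hapln1, the link protein of cartilage, was the single one of 16 other proteoglycan and link protein genes past 2-fold, with 13.50 in C6 TAZ and 11.76 in C6 (median of the list −0.085).

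Of 17 genes that regulate or accompany matrix production in tendon, cartilage and bone, 4 were at least 2-fold higher and none was as much lower (median 0.12). These were Tgfbi, a matrix protein gene induced by TGF-β, with a difference of 4.20, the transcription factor genes Egr1 (2.52) and Egr2 (1.42), and Thbs1, which encodes thrombospondin (2.06). The tendon factors Scx and Mkx had differences of −0.12 and 0.23.

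**Figure D4:**
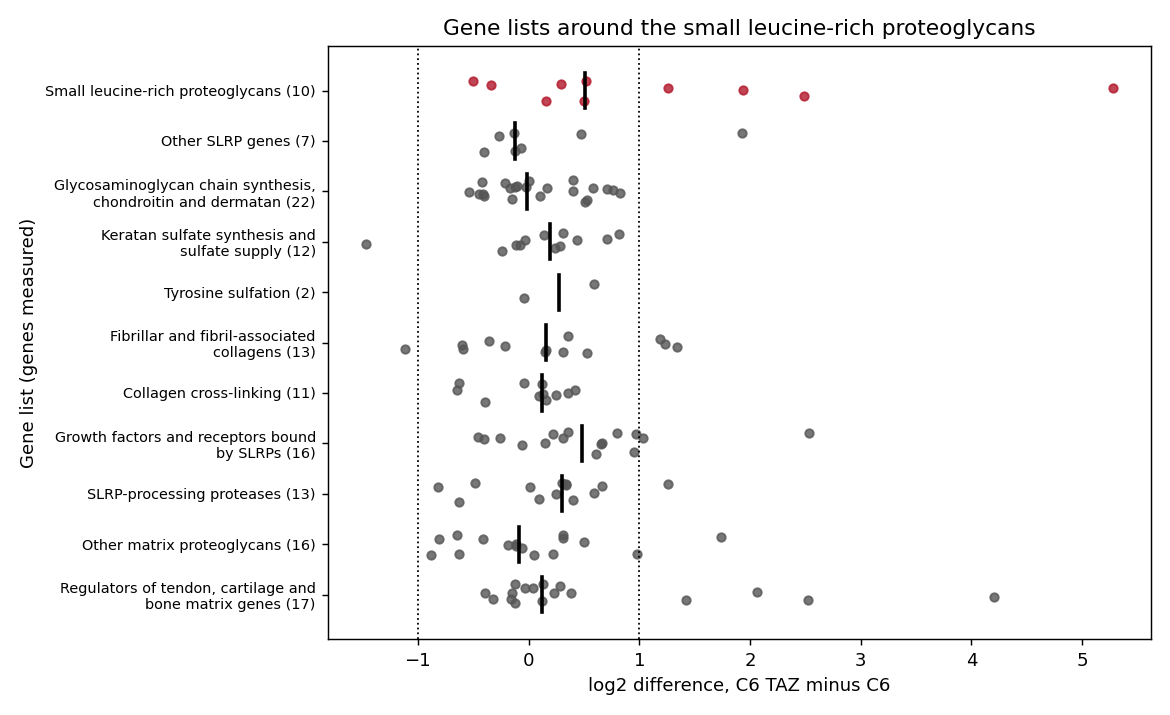
Log2 difference of C6 TAZ minus C6 for each gene of the members and of the lists around them (points, spread vertically for legibility), with the median of each list as a black bar, dotted lines at 2-fold and the number of genes measured in brackets (Pcolce is counted among the proteases). The small leucine-rich proteoglycans (SLRPs, red) have a median of 0.51, and Fmod, at 5.28, is the point farthest to the right.

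Small leucine-rich proteoglycans are made by fibroblasts, cartilage and bone cells, and markers of these cells were read beside them. None of 9 glial genes was past 2-fold, with 5 positive and 4 negative differences between −0.84 and 0.65 (median 0.05) and a summed signal of 18.91 in C6 TAZ and 18.86 in C6 on the log2 scale, of which Vim, an intermediate filament gene, had 18.77 in C6 TAZ and 18.72 in C6. The ends of this range were Olig2, an oligodendrocyte lineage factor, at 7.68 in C6 TAZ and 8.52 in C6, and the astrocyte gene Gfap, at 6.38 in C6 TAZ and a dim 5.73 in C6. None of 12 fibroblast genes was past 2-fold (median difference −0.155), 6 of them were under 6 in both arrays, and their summed signal was 14.70 in C6 TAZ and 14.85 in C6. Most of it was Pdgfra, a growth factor receptor gene, at 14.61 in C6 TAZ and 14.76 in C6. Col1a2 of the fibroblast list is again the average of 2 clusters whose differences were over 1 apart. Of 10 cartilage and tendon genes, Tnmd was higher by 1.23 at low signals of 5.03 in C6 TAZ and 3.80 in C6. Of these 10, 6 were under 6 in both arrays, and the summed signal was 9.43 in C6 TAZ and 9.34 in C6. None of 7 bone cell genes was past 2-fold, and their summed signal of 13.08 in C6 TAZ and 13.23 in C6 was mostly that of the transcription factor gene Runx2, with 13.03 in C6 TAZ and 13.19 in C6. Of 6 genes of microglia and macrophages, the lysosomal gene Cd68 was higher by 2.12, at 8.42 in C6 TAZ and 6.30 in C6, and the other 5 were under 6 in both arrays. Their summed signal was 8.81 in C6 TAZ and 7.51 in C6. Of 6 endothelial genes the receptor gene Tek was lower, with a difference of −1.47, and the summed signal was 7.48 in C6 TAZ and 8.19 in C6. Each summed signal adds clusters with different probes, whose levels cannot be compared. A sum leans on the brightest clusters of its list and measures neither an amount of transcript nor a share of cells. The part of these genes' cells in the signals of the members was not tested. In pooled cultures, more transcript per cell and more cells that make it cannot be told apart.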

How the data were processed

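Total RNA of C6 TAZ and C6 cells (3 pooled cultures each) was hybridised to 1 Affymetrix Clariom S rat array per genotype. The authors deposited log2 signals for 23188 transcript clusters, which the submitters' processing notes link to Affymetrix Expression Console, with an annotation on rn6. The sources used here do not give how probes were summarized and arrays normalized. The workbook also holds the authors' fold changes and a sheet of peptidases, and neither was used. An analysis of variance, named in the methods, cannot be run with 1 array per genotype.

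For each cluster the C6 signal was subtracted, on the log2 scale, from the C6 TAZ signal, and the difference was rounded to 2 decimals and counted as past 2-fold at 1 or more. A gene was read from clusters with its symbol alone, averaged, or from a shared cluster where it had no other. The calculation was run on simulated data in which the planted differences were much larger than the noise. That run checks the arithmetic and not how reliable a 2-fold call is. The members and 16 further gene lists were chosen with earlier results of these data known, and 179 of 183 listed genes were found on the array. Named genes are the members, up to 4 genes past 2-fold per list and direction that reach a log2 signal of 6 in either array, and up to 3 neighbours on either side. The genes nearest to a member in both signals were part of the rule, and are not given because signals of different probes cannot be compared. Other genes of the lists, such as Tnmd, Olig2 and Scx, were named after their values were seen. Symbols, gene order and promoter sequences came from RefSeq tables of GRCr8. The alternatives were 3 scalings, other clusters per gene, a 1.5-fold threshold, a minimum signal, the mean and the names of the per-sample table. Python 3.11.15, pandas 2.3.3, numpy 2.4.6 and matplotlib 3.10.9 were used. The number of arrays limits the precision.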

Additional observations from a re-analysis of the deposited data

How the results depend on the processing

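After quantile normalization, and after centring on the median cluster or on ribosomal protein clusters, each of the 10 differences kept its direction and its side of 2-fold, and none moved by more than 0.08. With all clusters that carry a symbol, or the brightest one, again 4 members were at least 2-fold higher and none was as much lower. The median difference of 0.51 became 1.94 over the 5 members that reach a log2 signal of 6 in either array, a filter that favours members with a large difference, and the mean over all 10 was 1.16. With the names of the per-sample table, 0 members were at least 2-fold higher and 4 at least 2-fold lower, with a median of −0.51 and differences of −5.28 for Fmod, −2.49 for Ogn, −1.94 for Omd and −1.26 for Prelp. Among the other gene lists, centring on ribosomal protein clusters, which shifts all differences by 0.075, gave 4 growth factor and receptor genes at least 2-fold higher in place of 2, and 2 other proteoglycan genes in place of 1. At 1.5-fold, 8 growth factor and receptor genes, 3 chondroitin and dermatan sulfate genes, 3 genes of the protease list, 2 keratan sulfate genes, 2 other proteoglycan genes and 1 tyrosine sulfotransferase were higher, and 4 other proteoglycan genes, 3 collagen chains, 2 cross-linking genes and 2 genes of the protease list were lower. No paired analysis was possible because each genotype has 1 array. Low signals limit how well a fold is known, such as that of Fmod in C6.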
